A study of Mus musculus with 14 samples.

Results

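The genes of the proteasome were followed here across mouse pluripotent and germ cells on expression arrays. Members were chosen by gene symbol, as every symbol that starts with Psm, then a letter from a to g and a number. 67 probes of 45 genes matched, and a probe was kept when its detection p-value was under 0.01 on at least 2 arrays. A gene was represented by the brightest of its probes, and 42 of the 9054 genes tested were members. Psmc3ip, a meiotic recombination cofactor, and Psme3ip1, a partner of the activator subunit Psme3, match the pattern but are no subunits, which left 40 proteasome genes with 57 kept probes. Psma1, Psma6 and Psmb8 had probes that were detected on fewer than 2 arrays. No probe was listed for Psma8, Psmb11, Psmd3, Psmg4, Psme2b or Psmf1, which are not analysed here.

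The proteasome is the main protease of the cytosol and nucleus and degrades proteins that carry ubiquitin chains. Its barrel, the core particle, has outer rings of alpha subunits (Psma genes) that gate the entry and inner rings of beta subunits (Psmb genes), of which Psmb5, Psmb6 and Psmb7 carry the proteolytic sites. The regulatory particle on its ends has a base of ATPases (Psmc genes) that unfold substrates and non-ATPase subunits (Psmd genes) that bind and remove ubiquitin. Interferon induces Psmb8, Psmb9 and Psmb10, which take the place of the catalytic subunits in the immunoproteasome, and the PA28 activator of Psme1 and Psme2, and both shape the peptides that cells present on MHC class I. Psme3 forms a nuclear activator, and Psme4 encodes the activator PA200, known for its role in spermatogenesis. Psmg1, Psmg2, Psmg3, Psmd5, Psmd9 and Psmd10 encode chaperones that help assemble the particles and leave the finished complex.

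All 14 arrays were made with RNA of C57BL cells. EG denotes pluripotent embryonic germ cells, lines derived from primordial germ cells, cultured without hypoxia (2 arrays). hiEGL1 and hiEGL2 are lines of hypoxia-induced EGC-like cells and the only groups cultured in hypoxia (2 arrays each). ESCm and ESCf are embryonic stem cells, male and female in the description of the series (2 arrays each), although another label of these samples calls them germ cells, and their titles were followed. EpiT9 and EpiE3 are epiblast stem cell lines with 1 array each, together called EpiSC. PGC11.5 are unipotent primordial germ cells of 11.5 days post coitum (2 arrays). No label says whether replicates came from separate cultures, so their spread may be technical. With 1 or 2 lines of a cell type, a difference between cell types is one between these lines, and hypoxia cannot be told apart from the derivation of the hiEGL lines.

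Between 29.8% and 45.4% of the probes were detected on an array. Replicates correlated at Pearson's r of 0.994 to 0.997 across genes, except those of PGC11.5 at 0.952, which differed by 2-fold or more in 1236 genes. The arrays of EG, hiEGL1 and hiEGL2 also stood apart from the other 8 as a set. 802 of the 12404 kept probes were detected on all of the 8 and on none of these 6, against 47 the other way, and among the 57 probes of proteasome genes the counts were 5 and 0. Comparisons within each set are therefore given first. The cell types showed their markers in part. Nanog, Dppa5a, Tdgf1, Utf1 and Esrrb were detected on all 4 hiEGL arrays, Pou5f1 on 3, Sox2 on 1 and Zfp42 on 0. Both EG arrays detected all 8 pluripotency markers. Of the 8 germ cell markers, Ddx4 was detected on the PGC11.5 arrays alone and Mael on no array. Dnd1 was detected in every group, and Dppa3, Dazl, Nanos3, Prdm14 and Stk31 in PGC11.5 and in other groups. In cell populations, fewer cells of a type and less RNA per cell cannot be told apart. All levels below are normalised log2 intensities of 1 probe per gene, so that they compare samples and not genes.

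Most proteasome genes were lower in the hiEGL lines than in EG cells, while the immunoproteasome subunit Psmb9 and the PA28 subunit Psme1 were higher. Of the 40 genes, 26 fell and 3 rose at an adjusted p under 0.05 in limma, against 61.8% of all genes tested that were called, with 33.4% lower and 28.4% higher. The median log2 difference of the 40 was -0.45, beside -0.04 over all genes. A called change of at least 2-fold was found in 10 of them, and in 30.6% of all genes. With each line as a random block in the model, 12 were called, 2 higher and 10 lower, where 32% of all genes were called. With arrays scaled to a common median in place of quantile normalization, 8 were higher and 19 lower, and the median of all genes rose to 0.38, so the median of the proteasome genes lay 0.58 below it.

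**Figure D1:**
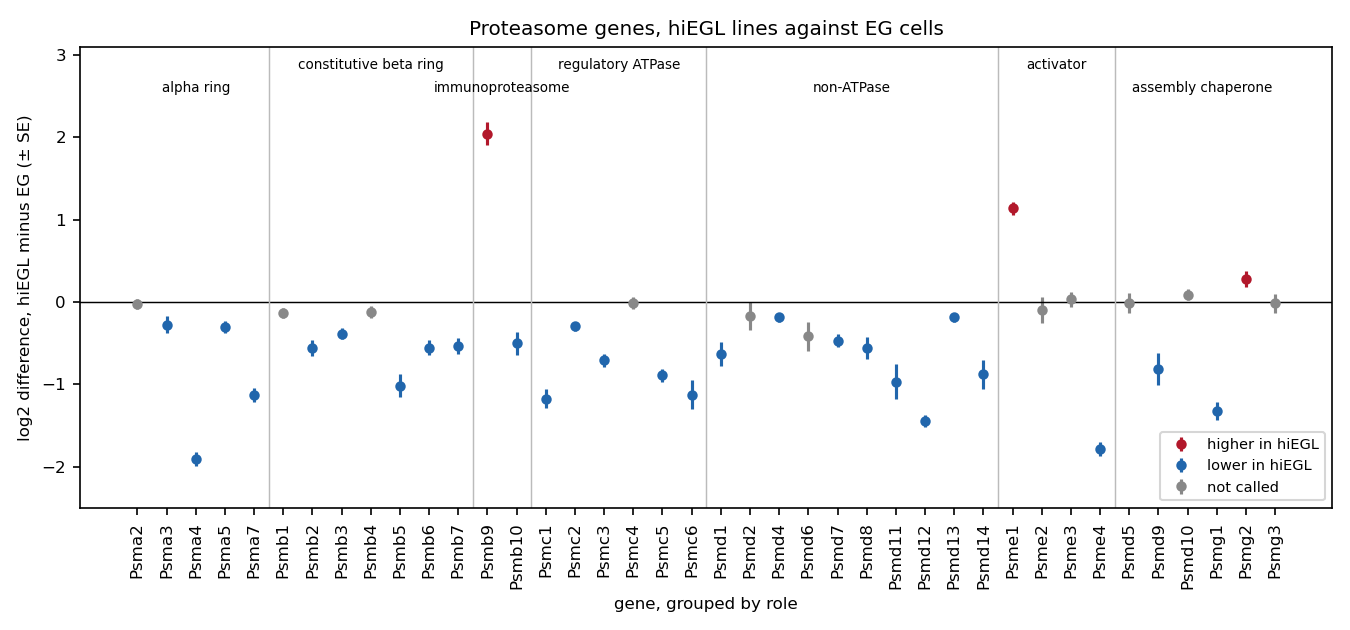
Log2 difference of each of the 40 proteasome genes between the hiEGL lines (4 arrays) and EG cells (2 arrays), in log2 units, with genes grouped by role and bars of 1 standard error. Most points lie below 0, down to -1.91 for Psma4, while Psmb9 stands at 2.05 and Psme1 at 1.14.

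Within the core particle, 4 of 5 alpha subunit genes fell and 0 rose. The largest fall among all members was that of Psma4, an alpha ring subunit. Its level was 9.87 and 9.94 in EG, 7.62 and 7.48 in hiEGL1 and 8.51 and 8.37 in hiEGL2. All 4 hiEGL arrays were below both EG arrays and hiEGL1 was the lower line. The difference was -1.91 ± 0.08 (SE), or 3.76-fold (limma, adjusted p = 3.65e-08). Psma7, the other alpha subunit that fell over 2-fold, went from 10.75 and 10.74 in EG to between 9.18 and 10.13 in hiEGL, and its second probe gave -1.15 beside -1.13.

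Of the 7 genes of the constitutive beta ring, 5 fell and 0 rose, and those of all 3 catalytic subunits were among them. Taken apart, hiEGL1 had 4 called lower than EG and hiEGL2 had 6. With the lines as a random block the calls of Psmb2, Psmb5 and Psmb7 were lost (adjusted p = 0.109, 0.169 and 0.0773). Psmb5, the chymotrypsin-like subunit, measured 8.55 and 8.83 in EG, 8.22 and 8.0 in hiEGL1 and 7.11 and 7.37 in hiEGL2. The groups did not overlap, and the difference was -1.02 ± 0.14, or 2.02-fold (limma, adjusted p = 9.88e-05). Psmb6, the caspase-like subunit, was lower by 1.47-fold (limma, adjusted p = 3.55e-04). Psmb7, the trypsin-like subunit, was lower by 1.45-fold on its brightest probe (limma, adjusted p = 6.61e-04). Its other kept probes gave log2 differences of 0.01, which was not called, and 0.51, which was called higher, and the mean of its probes was not called (adjusted p = 0.989), so the direction of Psmb7 depends on the probe. It was the only one of 15 proteasome genes with several kept probes that had opposite calls here, and 1.73% of all such genes had them.

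In the immunoproteasome the tested members went opposite ways. Psmb9, the interferon-inducible counterpart of Psmb6, measured 6.08 and 6.41 in EG, 8.64 and 8.52 in hiEGL1 and 8.01 in both hiEGL2 arrays. Every hiEGL array was over 1 log2 unit above both EG arrays. The difference was 2.05 ± 0.14, or 4.13-fold (limma, adjusted p = 7.18e-07). Psmb10, the counterpart of Psmb7, measured 8.21 and 8.03 in EG and 7.55, 7.63, 7.69 and 7.60 in the hiEGL arrays. Its groups did not overlap either, and it was lower by 1.42-fold (limma, adjusted p = 0.00967), a call that was lost without EG replicate 1 (adjusted p = 0.102), with median scaling (adjusted p = 0.166) and with the lines as a random block (adjusted p = 0.466). Psmb8, the counterpart of Psmb5, was detected on 1 array of the 14 and was not tested.

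The promoters of these catalytic subunits are shown because Psmb9 moved against the constitutive ones. Each line gives the 250 bases before the gene's start in RefSeq, build GRCm38.p6, read 5′ to 3′ on the gene's strand. Capitals mark TGACNNNGC, the core of the antioxidant response element, in Psmb5 and Psmb6, and a CCAAT box in Psmb9, where it lies on the opposite strand and reads ATTGG. The windows are chr14:54617996-54618245 on the minus strand, chr11:70525107-70525356 on the plus strand and chr17:34187331-34187580 on the minus strand. Psmb7 has no entry in the promoter table. The window listed for Psmb10 is among those searched below and holds 0 matches, and it is not shown because its sequence was doubted, by eye and without a test, to be a promoter.
Psmb5: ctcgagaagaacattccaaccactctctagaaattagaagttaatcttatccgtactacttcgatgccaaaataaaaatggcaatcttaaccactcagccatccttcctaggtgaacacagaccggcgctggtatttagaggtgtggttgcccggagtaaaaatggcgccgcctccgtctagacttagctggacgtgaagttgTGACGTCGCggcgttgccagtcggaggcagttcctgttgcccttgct
Psmb6: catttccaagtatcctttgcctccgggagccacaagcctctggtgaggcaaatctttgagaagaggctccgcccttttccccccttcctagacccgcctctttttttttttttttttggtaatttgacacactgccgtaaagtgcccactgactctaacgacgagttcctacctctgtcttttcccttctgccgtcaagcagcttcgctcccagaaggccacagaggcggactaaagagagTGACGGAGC
Psmb9: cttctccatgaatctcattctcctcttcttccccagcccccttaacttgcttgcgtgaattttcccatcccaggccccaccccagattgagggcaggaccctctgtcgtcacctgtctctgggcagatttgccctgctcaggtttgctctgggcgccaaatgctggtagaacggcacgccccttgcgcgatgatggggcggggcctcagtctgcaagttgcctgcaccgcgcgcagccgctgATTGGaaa
TGACNNNGC begins 47 bases before the start of Psmb5 and 9 bases before that of Psmb6, and CCAAT 8 bases before that of Psmb9. Psmb9 lies head to head with Tap1, a subunit of the transporter that carries peptides into the endoplasmic reticulum, with 226 bases between their starts, so its window holds both. Searched on both strands of the same window, TGACNNNGC was in 5 of the 34 proteasome genes with an entry (14.7%) and in 10.1% of 27025 genes. CCAAT was in 11 of the 34 (32.4%) and in 34.5% of all, and the interferon response core, GAAA and GAAA with any 2 bases between them, in 3 (8.82%) and in 3.04% of all. These 3 were Psmb3, Psmd4 and Psmd9, and the Psmb9 window held 0 matches of this core. A STAT-type site, TTCNNNGAA, was in 1 of the 34 (2.94%) and in 7.18% of all. No match of one motif overlapped a match of another in these 34 windows (0 pairs).

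In the base of the regulatory particle, 5 of 6 ATPase genes fell, with a median of -0.80, and 0 rose. Psmc1 measured 10.97 and 10.98 in EG and 9.84, 9.73, 9.80 and 9.82 in the hiEGL arrays. The groups were a full log2 unit apart, at -1.17 ± 0.11, or 2.26-fold (limma, adjusted p = 6.65e-06). Psmc5 was lower by 1.86-fold and Psmc3 by 1.63-fold, both without overlap between the groups. Psmc6 was detected on both EG arrays and on 0 of 4 hiEGL arrays, at least 1.18-fold lower. Psmc4, at -0.01, was the ATPase gene that was not called (limma, adjusted p = 0.924).

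Of the 10 non-ATPase genes, 8 fell, with a median of -0.52, and 0 rose. Taken apart, hiEGL1 had 6 called lower than EG and hiEGL2 had 8. The largest fall was that of Psmd12, a subunit of the lid, the subcomplex that removes ubiquitin. It measured 9.75 and 9.60 in EG, 7.91 and 7.99 in hiEGL1 and 8.59 and 8.43 in hiEGL2. The difference was -1.44 ± 0.07, or 2.72-fold (limma, adjusted p = 6.82e-08), and the gene's other kept probe also fell, by 0.91. Psmd14, the deubiquitinase of the lid, was lower by 1.84-fold (limma, adjusted p = 0.00131), without a call when the lines were a random block (adjusted p = 0.0648). Psmd4, a ubiquitin receptor, fell by 0.19, with means of 13.63 in EG, 13.60 in hiEGL1 and 13.29 in hiEGL2. Psmd13 had means of 12.91 in EG, 12.98 in hiEGL1 and 12.47 in hiEGL2. Psmd2 was below background on all 6 arrays with both kept probes. The brightest probes of Psmd6 and Psmd11 were below background there too, although Psmd11 was called, and their other kept probes were detected on 3 and 1 of the 6 arrays, so no fold is given for these genes.

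Among the activators, Psme1 rose and Psme4 fell. Psme1 measured 9.88 and 9.82 in EG, 11.09 and 11.14 in hiEGL1 and 10.89 and 10.82 in hiEGL2. The hiEGL arrays were all higher, by 1.14 ± 0.07 or 2.20-fold (limma, adjusted p = 5.01e-07), and the second probe rose by 0.80. Its PA28 partner Psme2 was not detected on any of these 6 arrays, so the pair cannot be compared there. Psme4 measured 11.29 and 11.15 in EG, 8.90 and 8.98 in hiEGL1 and 10.01 and 9.86 in hiEGL2. It was lower in every hiEGL array, by 3.44-fold (log2 difference -1.78 ± 0.08; limma, adjusted p = 5.32e-08), on the 1 of its 2 kept probes that was detected on these arrays. Psme3 differed by 0.03 ± 0.09 over the lines together and is taken up with them below.

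Of the 6 assembly chaperones, 2 fell and 1 rose. Psmg1, which pairs with Psmg2 to assemble the alpha ring, measured 7.95 and 8.33 in EG and 6.75, 6.81, 6.83 and 6.87 in the hiEGL arrays, without overlap, and was lower by 2.50-fold (limma, adjusted p = 2.70e-06). Psmg2 was higher by 1.21-fold (limma, adjusted p = 0.0267), and the call was lost with its other probe (adjusted p = 0.897), with either EG array left out (adjusted p = 0.113 and 0.110) and with the lines as a random block (adjusted p = 0.379). Psmd9 was called lower but was detected on 1 of these 6 arrays, in EG, and has no fold. The genes that share the symbol pattern without being subunits also fell, Psmc3ip by 1.03 and Psme3ip1 by 0.40 in log2 units (limma, adjusted p = 1.72e-06 and 0.0425).

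Genes that work with the proteasome were followed in a list of 32, of which 14 were tested. 6 were lower in hiEGL than in EG and 3 higher, with a median of -0.26. Pomp, the maturation factor of the core particle, was lower by 1.78-fold (limma, adjusted p = 5.78e-07). Both deubiquitinases that dock on the proteasome were lower, Usp14 by 2.86-fold (limma, adjusted p = 1.83e-05) and Uchl5, undetected on the 4 hiEGL arrays, by at least 3.29-fold (limma, adjusted p = 8.83e-07). The shuttle factor Rad23b, which carries ubiquitinated proteins to the proteasome, was lower by 4.58-fold (limma, adjusted p = 9.69e-06). Nfe2l1, the transcription factor that raises proteasome genes when the proteasome is inhibited, was higher by 1.18-fold (limma, adjusted p = 0.00523), without a call when EG replicate 2 was left out (adjusted p = 0.0809) or when the lines were a random block (adjusted p = 0.299). Sem1, a lid subunit, and Vcp were also higher, by 0.44 and 0.36 in log2 units. Both lost the call when the lines were a random block (limma, adjusted p = 0.126 and 0.0805).

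Of 13 genes of antigen presentation and interferon response, 8 were tested, and 5 were higher in hiEGL and 1 lower, with a median of 1.17. Tap2, the partner of Tap1, was higher by 13.4-fold (limma, adjusted p = 6.79e-07). Irf1, an interferon regulatory factor that drives Psmb9 and Tap1, was higher by 2.95-fold on its brightest probe (limma, adjusted p = 6.50e-08), and its other kept probes gave log2 differences of 0.11 and -0.04 without a call. The MHC class I heavy chain H2-K1 was at least 1.62-fold and the guanylate-binding protein Gbp2 at least 4.03-fold higher, both undetected in EG. Tap1 was called higher (limma, adjusted p = 4.26e-04) but was detected on 1 hiEGL array of 4 and no EG array, and the call was lost with the lines as a random block (adjusted p = 0.0847). Irf9 was lower by 1.61-fold, and B2m, the MHC class I light chain, differed by 0.75 ± 0.32 without a call (limma, adjusted p = 0.0682).

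Markers of other cell types moved in the same comparison. All 8 tested fibroblast markers were higher in hiEGL than in EG, and the log2 levels of the 9 listed genes with a probe summed to 50.9 and 51.7 in EG and to 68.2 to 70.3 in hiEGL, with Postn undetected on all 14 arrays. All 8 pluripotency markers were lower, with sums of 80.6 and 80.8 in EG against 64.3 to 67.0. Of 7 markers of blood, endothelium and macrophages 4 were higher and 1 lower, and of 5 of gonadal somatic cells 3 and 1. Their part in the differences of the proteasome genes was not tested.

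The hiEGL lines differed from each other in single genes. 17 of the 40 proteasome genes were called between hiEGL2 and hiEGL1, 4 higher and 13 lower in hiEGL2, against 30.0% of all genes. In 1 of them the difference reached 2-fold, as in 7.28% of all genes. Of all genes 13.9% were higher and 16% lower in hiEGL2. Against EG, hiEGL1 had 26 called proteasome genes, 4 higher and 22 lower, where 58.8% of all genes were called, 28.1% higher and 30.7% lower. hiEGL2 had 31, 2 higher and 29 lower, where 59.2% were called, 26.5% higher and 32.7% lower. Between hiEGL2 and hiEGL1 the count ran from 11 to 22 when 1 array was left out, and was 11 without hiEGL1 replicate 2 or without hiEGL2 replicate 2. It was 22 without both PGC11.5 arrays, where 48.8% of all genes were called. With median scaling 7 were higher and 11 lower in hiEGL2 than in hiEGL1, where 24.9% of all genes were called. The genes higher in hiEGL2, which were Psme4, Psma4, Psma7 and Psmd12, were those that stood farthest below EG in hiEGL1. Psme4 was higher in hiEGL2 by 1.99-fold (1.00 ± 0.10; limma, adjusted p = 7.33e-05), Psma4 by 1.85-fold (limma, adjusted p = 1.47e-04) and Psma7 by 1.73-fold (limma, adjusted p = 2.38e-04), from the values given above. Psmd12 was higher by 1.47-fold (limma, adjusted p = 7.08e-04), and its other kept probe gave -0.21 without a call. These genes share EG and the hiEGL1 arrays between both comparisons, so the values stand side by side and are no independent evidence.

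Lower in hiEGL2 were Psme3, Psmb3 and Psmb5 at the head. Psme3 measured 8.44 and 8.40 in EG, 8.94 and 8.99 in hiEGL1 and 7.85 and 8.03 in hiEGL2. One line was above EG and the other below, and between the lines the difference was -1.02 ± 0.11, or 2.03-fold (limma, adjusted p = 1.20e-04). Psmb3, a structural subunit of the beta ring, measured 11.93 and 11.87 in EG, 11.99 and 12.00 in hiEGL1 and 11.10 and 10.95 in hiEGL2. The hiEGL1 arrays were slightly above both EG arrays and the hiEGL2 arrays below them, at 1.96-fold below hiEGL1 (limma, adjusted p = 2.21e-05). Psmb5 was 1.82-fold lower in hiEGL2 (limma, adjusted p = 0.00275). Psmb9 was also lower in hiEGL2, by 1.48-fold (limma, adjusted p = 0.0262), and was 3.40-fold above EG there and 5.02-fold above it in hiEGL1. The call of Psmb9 between the lines was lost with the authors' normalized values (adjusted p = 0.207), with median scaling (adjusted p = 0.274) and without any 1 of the 4 hiEGL arrays (adjusted p from 0.0845 to 0.154).

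**Figure D2:**
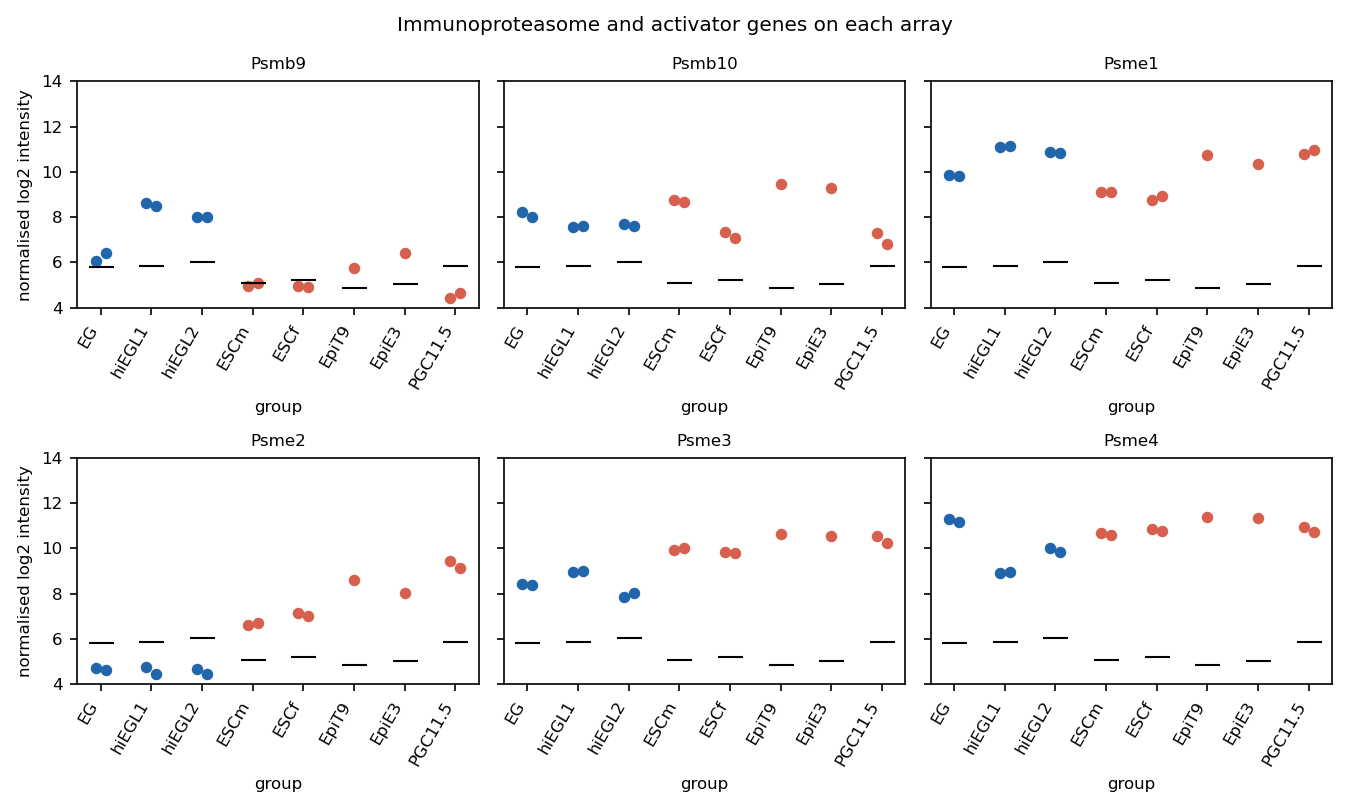
Normalised log2 intensity of 6 genes on each of the 14 arrays by group, with EG and hiEGL arrays in blue, the other 8 arrays in red, and black dashes for the group's mean of the lowest signal called detected. Psmb9 is highest in hiEGL1 (8.64 and 8.52) and lies at or under the dashes in ESCm, ESCf and PGC11.5, while Psme2 lies under them in all EG and hiEGL arrays.

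Against ESC, EpiSC had higher levels of the immunoproteasome and of every activator, and lower levels of most of the regulatory particle. Of the 40 genes 13 rose and 16 fell, where 62.9% of all genes were called, 34.5% higher and 28.4% lower, and the median was -0.03 beside 0.07 over all genes. With each line as a random block 15 were called, 8 higher and 7 lower, where 36.4% of all genes were called. In the main fit 10 were called with a change of at least 2-fold, as were 28.4% of all genes. All 4 activator genes and both immunoproteasome genes rose, while 8 of 10 non-ATPase genes fell and 1 rose. The alpha ring changed least by count, with 1 of 5 genes called.

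Psme1 measured 9.12, 9.10, 8.76 and 8.93 in ESC, 10.74 in EpiT9 and 10.37 in EpiE3. Both epiblast lines were above every ESC array, by 1.57 ± 0.07 or 2.98-fold (limma, adjusted p = 6.66e-08). Psme2 measured 6.61, 6.71, 7.15 and 6.99 in ESC, 8.61 in EpiT9 and 8.05 in EpiE3, again without overlap, and was 2.76-fold higher (limma, adjusted p = 1.68e-05). Psmb10 was 2.63-fold higher (limma, adjusted p = 1.24e-05), with 9.45 in EpiT9 and 9.29 in EpiE3 against 7.09 to 8.78 in ESC. Psmb9 was detected in both epiblast lines and on 0 of 4 ESC arrays, at least 1.94-fold higher (limma, adjusted p = 6.52e-05). Psme3 and Psme4 rose by 1.59-fold and 1.57-fold, and both lost the call with each line as a random block (adjusted p = 0.0697 and 0.0602), and the other probe of Psme4 gave 0.00 without a call. Of the 8 antigen presentation genes tested, 7 rose and 1 fell, and Gbp2, undetected in ESC, was at least 8.97-fold higher (limma, adjusted p = 3.68e-07).

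Of the 7 tested Psmd genes of the lid, 6 fell and 1 rose. Sem1, a lid subunit counted in the pathway list, is not among these 7. The lid was set apart as a group after its values had been seen. Psmd6, a structural lid subunit, measured 8.45, 8.39, 8.45 and 8.41 in ESC, 6.08 in EpiT9 and 6.23 in EpiE3. The ESC arrays lay within 0.1 of each other and the epiblast lines over 2 log2 units lower, a 4.84-fold difference (limma, adjusted p = 1.79e-06), and the second probe was lower too, at -3.14. Psmd14 measured 10.66, 10.74, 10.55 and 10.56 in ESC, 9.08 in EpiT9 and 8.87 in EpiE3, which is 3.15-fold lower (limma, adjusted p = 1.76e-05). Psmd7, the partner of Psmd14 in the lid, was 2.07-fold lower (limma, adjusted p = 1.74e-06), though its other probe gave -0.07 without a call. Psmd8, Psmd11 and Psmd12 fell as well, by 0.63, 0.63 and 0.47 in log2 units, and the call of Psmd8 rested on EpiT9 (9.08, against 9.86 in EpiE3, and adjusted p = 0.277 without EpiT9). Psmd13 rose by 1.22-fold. With each line as a random block Psmd8, Psmd11, Psmd12 and Psmd13 all lost the call (adjusted p = 0.0952, 0.198, 0.0616 and 0.167). Psmd11 also lost it with the authors' normalized values (adjusted p = 0.149) and without any 1 of 5 arrays, ESCm replicate 1 or 2, ESCf replicate 1, EpiT9 or EpiE3 (adjusted p from 0.0516 to 0.109).

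The catalytic core gene Psmb5 and the ATPase gene Psmc6 were also lower in EpiSC. Psmb5 measured 10.02, 10.08, 9.86 and 9.73 in ESC, 7.33 in EpiT9 and 9.24 in EpiE3. Both lines were below ESC but nearly 2 log2 units from each other, so the mean difference of -1.63 ± 0.14 (limma, adjusted p = 3.76e-06) does not describe either line. Psmc6 was detected on all 4 ESC arrays and in neither epiblast line, at least 4.41-fold lower (limma, adjusted p = 1.14e-06). Of the 14 tested genes of the ubiquitin and proteasome list, 7 fell and 1 rose, and Usp14 was lower by 3.92-fold (limma, adjusted p = 3.32e-06). Of the 8 pluripotency markers 7 were lower in EpiSC, and of 6 epiblast markers 5 were higher and 1 lower, with summed log2 levels of 57.4 in EpiT9 and 56.7 in EpiE3 against 43.2 to 45.3 in ESC, and their part in these differences was not tested.

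In primordial germ cells both PA28 genes were higher than in ESC. Of the tested genes, 6 of 7 Psmd genes of the lid and 5 of 6 ATPase genes were lower, while 1 of each rose. Of the 6 chaperone genes 4 rose and 2 fell. Of the 40 genes 14 rose and 19 fell, where 68.5% of all genes were called, 33.9% higher and 34.6% lower. The median was -0.18, beside -0.02 over all genes. Without PGC11.5 replicate 2 it was -0.058, beside -0.066 over all genes. 12 were called with a change of at least 2-fold, as were 35.9% of all genes. With each line as a random block 17 were called, where 38.4% of all genes were. Of 7 germ cell markers 6 were higher and 1 lower in PGC11.5, with summed log2 levels of 65.3 and 68.6 against 47.6 to 48.2 in ESC. Of 7 markers of blood, endothelium and macrophages 4 were higher and 2 lower. Among them, the globin gene Hba-a1 had a mean of 12.17 in PGC11.5, against 4.43 in ESCm and 4.52 in ESCf. The part of these markers in the differences was not tested. This comparison shares the ESC arrays with the previous one, so that what both show is not independent.

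Psme2 measured 9.46 and 9.13 in PGC11.5, above all ESC arrays, and was 5.39-fold higher (2.43 ± 0.15; limma, adjusted p = 3.10e-07). Psme1 measured 10.80 and 10.99 and was 3.78-fold higher (limma, adjusted p = 1.25e-08), and its second probe gave 2.35. Unlike the PA28 genes, Psmb9 was not detected on the PGC11.5 arrays, nor on any ESC array. It was still called lower, as 1 of the 19 genes that fell, but has no fold. Psmb10, at 7.32 and 6.84, was 1.86-fold lower than the mean of the ESC lines (limma, adjusted p = 2.29e-04). Its mean of 7.08 lay close to the 7.22 of ESCf and below the 8.73 of ESCm, and the call was lost with each line as a random block (adjusted p = 0.137). H2-K1, detected on 2 ESC arrays, was not detected on either PGC11.5 array. Psme3 rose by 1.40-fold, a call lost with each line as a random block (adjusted p = 0.246), and Psme4 differed by 0.13 ± 0.08 without a call.

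Among the chaperones, Psmg1, Psmg2, Psmg3 and Psmd5 rose and Psmd9 and Psmd10 fell. Psmd9 was not detected on either PGC11.5 array. The mean of Psmd10, 8.69, lay close to the 8.65 of ESCm and below the 9.51 of ESCf. Of the other kept probes of Psmd10, 1 was lower in PGC11.5 (7.64 and 8.01) than on every ESC array. The other, at 7.72 and 7.38, lay within the ESC arrays at 6.82 to 7.86. Psmg2 measured 11.22 and 10.97 against 9.13 to 9.53 in ESC and was 3.44-fold higher (limma, adjusted p = 9.29e-08), while its other kept probe gave -0.02 without a call. Psmg3, which pairs with Psmg4 in a chaperone of the alpha ring, was 2.05-fold higher (limma, adjusted p = 2.37e-05) on its 1 probe. Psmd5, a chaperone of the base, measured 8.64 and 8.66 against 7.57 to 7.87 in ESC and was 1.90-fold higher (limma, adjusted p = 7.00e-05).

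In the lid, 6 of 7 tested Psmd genes fell and Psmd13 rose, with a median of -1.11. Psmd14 measured 7.43 and 8.22, below all ESC arrays, and was 6.99-fold lower (limma, adjusted p = 2.81e-07). Psmd6 was not detected in PGC11.5 and was at least 5.95-fold lower (limma, adjusted p = 3.56e-08), and its second probe gave -3.10. Psmd11 measured 6.49 and 7.29 against 8.57 to 9.04 in ESC, a 3.88-fold difference (limma, adjusted p = 1.97e-05). Psmd8 was lower by 1.39-fold, and the call was lost without PGC11.5 replicate 2 (adjusted p = 0.0609). With each line as a random block Psmd8 and Psmd12 lost the call (adjusted p = 0.279 and 0.302). The other kept probe of Psmd7 gave -0.23 without a call (limma, adjusted p = 0.251). Of the ATPase genes, 5 of 6 fell, and Psmc6 was at least 2.35-fold lower (limma, adjusted p = 5.46e-07). The other kept probe of Psmc5, at 11.16 and 11.06, lay within the ESC arrays at 10.78 to 11.35. Psmb5 measured 8.14 and 8.55 and was 2.99-fold lower (limma, adjusted p = 3.38e-06). In the pathway list Usp14, undetected in PGC11.5, was at least 7.36-fold lower (limma, adjusted p = 1.55e-08), and 7 of 14 tested genes fell and 5 rose.

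**Figure D3:**
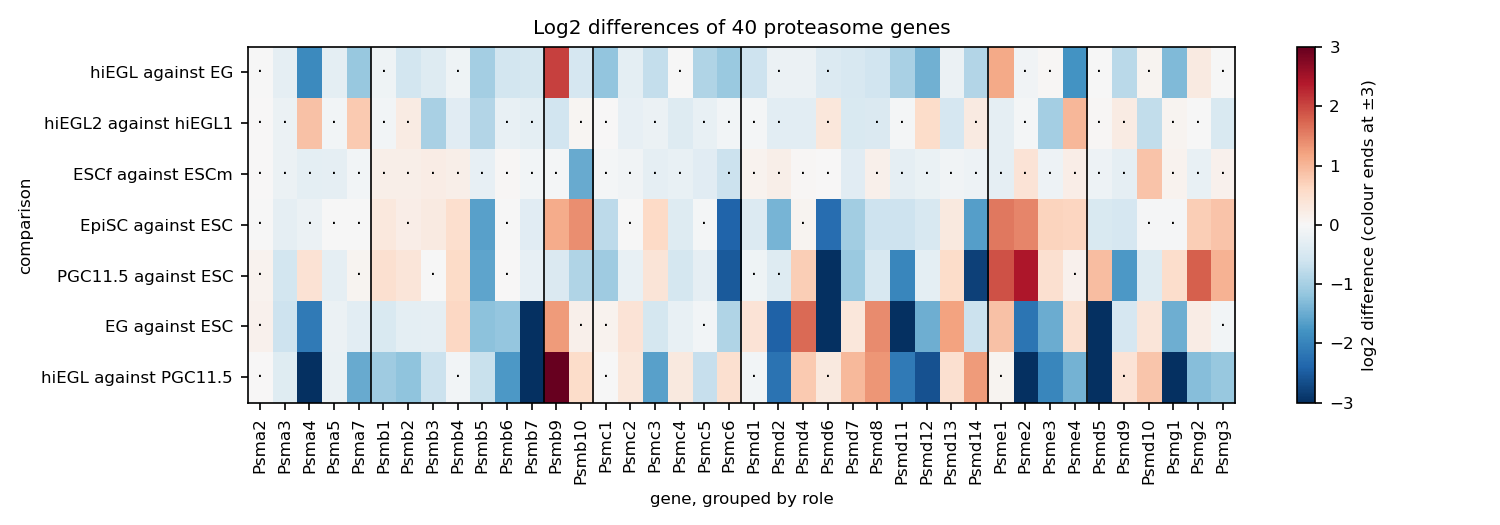
Log2 difference of the 40 proteasome genes (columns, grouped by role) in 7 comparisons (rows), in log2 units, red for higher and blue for lower in the group named first, with a dot where the difference was not called and colours that end at 3 and -3. Psme1 and Psme2 are red in both EpiSC against ESC and PGC11.5 against ESC, and Psmd6 and Psmd14 are blue in both.

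Between female and male ESC few proteasome genes differed. 4 of 40 were called, 1 higher and 3 lower in ESCf, where 19.3% of all genes were called, 10.2% higher and 9.09% lower. A called change of at least 2-fold was found in 1 of them and in 4.13% of all genes. Psmb10 measured 8.78 and 8.69 in ESCm and 7.34 and 7.09 in ESCf. The groups were far apart for replicates this close, and ESCf was 2.86-fold lower (limma, adjusted p = 1.99e-04), with -1.05 on the second probe. Psmd10, the chaperone also known as gankyrin, whose gene is X-linked, measured 8.63 and 8.68 in ESCm and 9.51 and 9.50 in ESCf and was 1.80-fold higher (limma, adjusted p = 5.55e-05), and its other kept probes gave 0.89 and 0.72. Psmc5 and Psmd7 were lower in ESCf by 0.35 and 0.33 in log2 units (limma, adjusted p = 0.0279 and 0.0336), and both lost the call when either ESCm array was left out. The count of called genes was 14 without either PGC11.5 array or without both, and 2 without ESCm replicate 1, ESCm replicate 2 or ESCf replicate 1. Without both PGC11.5 arrays 38% of all genes were called, and with no filter, which also gave 2, 8.33% were. With median scaling 4 were higher and 2 lower, where 16.8% of all genes were called. With 1 line of each sex, sex and line cannot be told apart.

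The remaining comparisons set EG and hiEGL arrays against the other 8, where probes of the same gene often disagreed. Between EG and ESC 35 of 40 proteasome genes were called, 12 higher and 23 lower, against 72.9% of all genes, 43.8% higher and 29% lower, and 16 of them changed by at least 2-fold, as did 41.1% of all genes. The median was -0.27, beside 0.21 over all genes. Between hiEGL and PGC11.5 33 were called, 11 higher and 22 lower, against 77.1% of all genes, 45.1% higher and 32.1% lower, and 20 of them changed by at least 2-fold, as did 52.6% of all genes. The median was -0.50 beside 0.22. With median scaling the splits were 5 higher and 26 lower, and 7 higher and 27 lower, where 66.6% and 71.3% of all genes were called. Of the 15 proteasome genes with several kept probes, 4 had opposite calls from their probes between EG and ESC and 3 between hiEGL and PGC11.5, where 21.6% and 26.5% of all such genes did. Within the other 8 arrays, 9.7% of all such genes had opposite calls between EpiSC and ESC and 16.2% between PGC11.5 and ESC. Of the 15 proteasome genes, 1 had them in each.

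**Figure D4:**
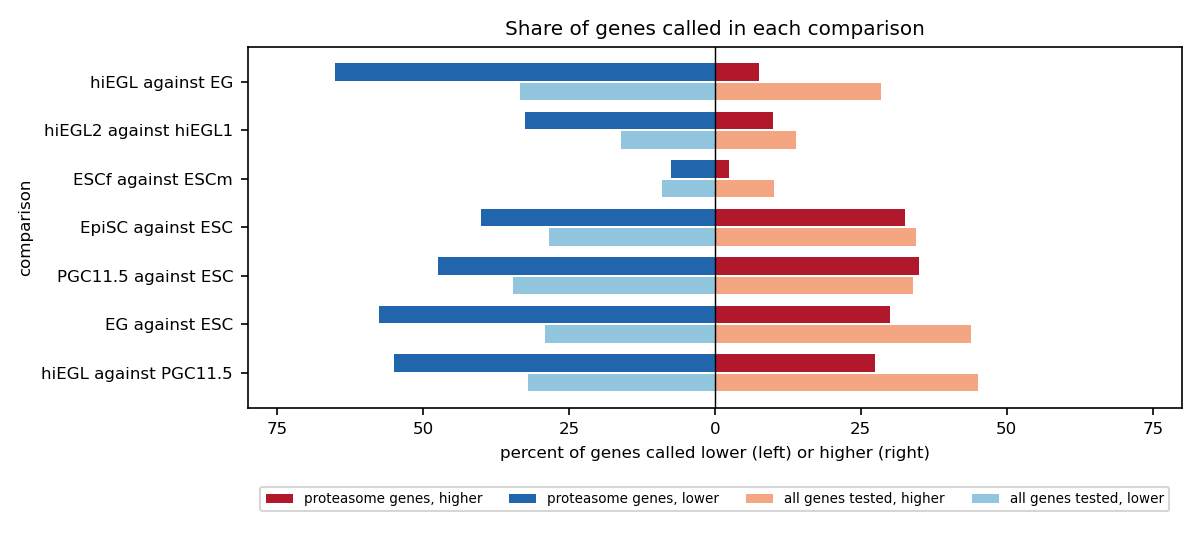
Percent of genes called lower (left) and higher (right) in each of 7 comparisons, for the 40 proteasome genes in dark bars and all 9054 genes tested in pale bars. The bar of proteasome genes called lower in hiEGL against EG reaches 65%, beside 33.4% of all genes.

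Psmb7 was 16.2-fold lower in EG than in ESC on its brightest probe (limma, adjusted p = 3.55e-10), with 7.94 and 7.78 in EG and 11.75 to 11.93 in ESC. Its other probes were lower too, at -5.65 and -1.77, a spread of almost 4 log2 units in the size of the change. Psmd7 was higher in EG by 0.33 on one probe and lower on the other, at -4.58, and Psmd10 was higher by 0.35 on one and lower on the others, at -2.92 and -1.72. Psmg2 was likewise higher by 0.23 and lower, at -2.04. For Psmd7, Psmd10 and Psmg2 no direction between EG and ESC can be given.

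**Figure D5:**
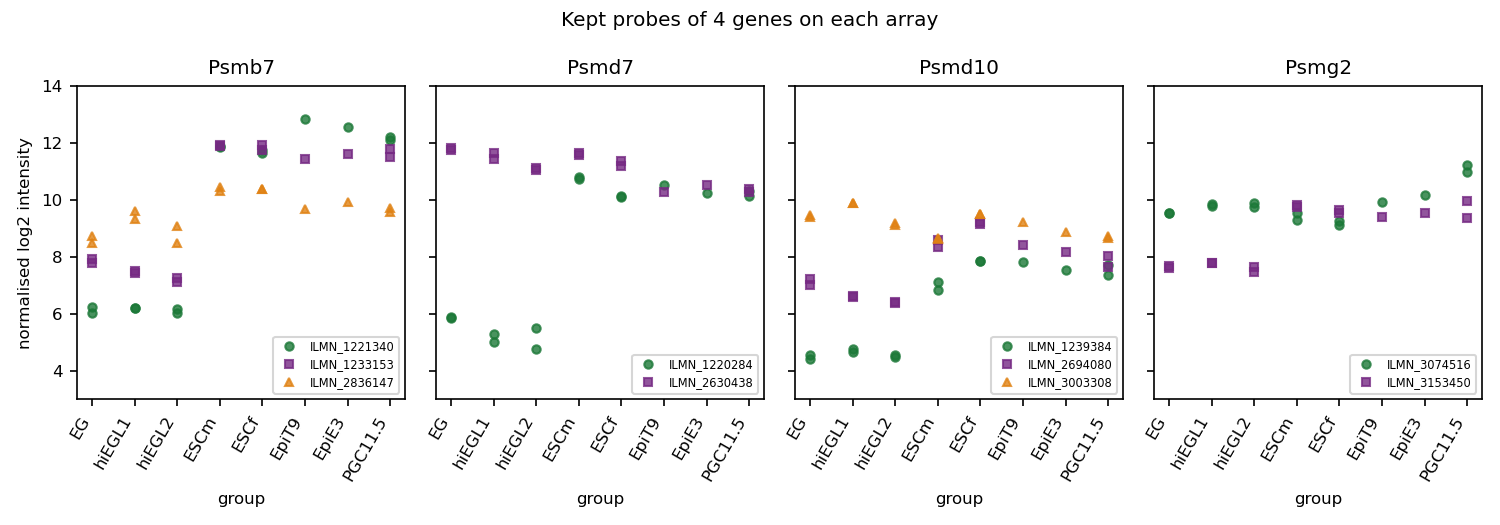
Normalised log2 intensity of every kept probe of Psmb7, Psmd7, Psmd10 and Psmg2 on each array by group, with 1 symbol and colour per probe. In Psmd7 one probe stays near 11 in all groups while the other is at 4.77 to 5.89 in EG and hiEGL and above 10 in the rest.

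Single-probe members, or members whose probes agreed in direction, had these values across that divide. Psmd4 was 3.25-fold higher in EG than in ESC (limma, adjusted p = 3.52e-09), with 13.65 and 13.61 in EG against 11.86 to 12.00. Psmd8 was 2.66-fold higher (limma, adjusted p = 5.35e-06), and Psmb9, undetected in ESC, was at least 2.15-fold higher (limma, adjusted p = 1.80e-05). Psmd5, undetected in EG, was at least 3.74-fold lower (limma, adjusted p = 6.10e-09). Psmd11 was lower with both kept probes, at -3.10 and -3.12, of which the second was detected on 1 EG array. Between hiEGL and PGC11.5, Psmb9 was at least 5.43-fold higher (limma, adjusted p = 3.20e-09), Psmd8 2.51-fold and Psmd14 2.44-fold higher. Psme2 was at least 10.2-fold lower (limma, adjusted p = 1.09e-09), Psma4 22.2-fold and Psmb7, on its brightest probe, 19.9-fold lower. Another kept probe of Psmb7 measured 9.34, 9.60, 8.50 and 9.07 in hiEGL and 9.72 and 9.59 in PGC11.5. The size of the Psmb7 difference therefore depends on the probe. The set of arrays and the cell type cannot be told apart in these values.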

How the data were processed

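RNA of 14 samples in 8 groups was measured on mouse Illumina bead arrays. Per the file headers, 1 deposited table has, by probe and array, a linear signal intensity that is not normalized and a p-value of detection. The authors' second deposited table holds normalized values on the log2 scale and was used as an alternative. BeadStudio 3.2, RMA and lumi are named in the submitters' processing notes, and the genome build of the probes is not given in the sources used here.

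Background correction and quantile normalization used limma 3.58.1 (function neqc, offset 16) under R 4.3.3. A gene was its probe of highest mean, tested if detected (p under 0.01) on at least 2 arrays. One mean per group was fitted to 9054 genes (lmFit, eBayes with trend, 6 residual degrees of freedom), lines had equal weight within hiEGL, ESC and EpiSC, and p-values received the Benjamini-Hochberg adjustment across the 9054 genes, with calls under 0.05. Detection is that of the gene's representing probe unless another is named. Where a group was undetected, a fold is a lower bound: the detected group's mean against, per array, the higher of the lowest detected signal and the probe's own value. SE is the moderated standard error. The fit was tested on simulated data.

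The text names the 3 largest called rises and falls per comparison, fixed subunits of interest, and further members and list genes chosen after their values were seen. Members and lists were chosen with earlier results of these data known. The number of arrays limits the precision. Alternatives were the authors' values, background correction, scaling, filters, probe choice, line or replicate as a block, and leaving out arrays. Leaving out both PGC11.5 arrays was added after seeing the data. Figures used Python 3.11.15 and matplotlib 3.10.9. Promoters are from RefSeq.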

Additional observations from a re-analysis of the deposited data

Results flagged for a closer look

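On the brightest probe of each gene, the hiEGL lines moved in opposite directions from EG in 2 proteasome genes. Psmd10 was higher than EG in hiEGL1 by 0.46 and lower in hiEGL2, at -0.28 in log2 units, both called by limma, and the difference between the lines was -0.73 (limma, adjusted p = 8.44e-05). Its other kept probes gave -0.20 and -0.22 between the lines without a call. Psme3 was higher in hiEGL1 by 0.54 and lower in hiEGL2, at -0.48, and the lines differed by -1.02 (limma, adjusted p = 1.20e-04) on its 1 kept probe.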

How the results depend on the processing

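The counts and medians of proteasome genes moved as follows. With each line as a random block (correlation within a line 0.641), 12 genes were called in hiEGL against EG, 15 in EpiSC against ESC, 17 in PGC11.5 against ESC and 21 in EG against ESC. The shares of all genes called were 32%, 36.4%, 38.4% and 43.3% in the same order. With a change of at least 2-fold also required, the counts were 10 in hiEGL against EG, 1 in hiEGL2 against hiEGL1, 10 in EpiSC against ESC, 1 in ESCf against ESCm, 12 in PGC11.5 against ESC, 16 in EG against ESC and 20 in hiEGL against PGC11.5. In ESCf against ESCm the count was 7 without background correction or with the mean of a gene's probes, where 21% and 20% of all genes were called. It was 2 with no filter (8.33% of all genes), 13 with only the arrays compared (33.5%) and 14 without both PGC11.5 arrays (38%). Median scaling gave median log2 differences of -0.20 in hiEGL against EG, -0.14 in EpiSC against ESC, -0.70 in EG against ESC and -0.77 in hiEGL against PGC11.5, and 7 higher and 11 lower genes in hiEGL2 against hiEGL1, with medians over all genes from -0.40 to 0.73. Without background correction the median in hiEGL against EG was -0.30. With no filter it was -0.033 in PGC11.5 against ESC and -0.21 in hiEGL against PGC11.5, where detection on every array of a group gave -0.36. The mean of a gene's probes gave -0.58 in EG against ESC and -0.68 in hiEGL against PGC11.5, and every probe on its own -0.63 and -0.67. The cause of these shifts was not tested, beyond the fewer genes or arrays that an alternative leaves.

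Leaving out 1 array gave counts from 25 to 31 in hiEGL against EG, 11 to 22 in hiEGL2 against hiEGL1, 24 to 31 in EpiSC against ESC, 2 to 14 in ESCf against ESCm, 30 to 34 in PGC11.5 against ESC, 29 to 36 in EG against ESC and 31 to 35 in hiEGL against PGC11.5. The median in PGC11.5 against ESC ran from -0.23 to -0.058. Where this left a group with 1 array, that array was assumed to vary like the other groups. The shares of all genes called moved too. Without both PGC11.5 arrays the counts were 31 in hiEGL against EG and 22 in hiEGL2 against hiEGL1, beside 71.7% and 48.8% of all genes. They were 30 in EpiSC against ESC and 14 in ESCf against ESCm, beside 74.4% and 38%.

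Of 92 called values of single genes that were followed, 56 kept direction and call under every alternative. Reversed were Psme4 (0.042), Psmb7 (0.014 and 0.51) and Irf1 (-0.045) in hiEGL against EG, Psmd12 (-0.21) in hiEGL2 against hiEGL1 and Psmg2 in EpiSC against ESC (-0.21) and PGC11.5 against ESC (-0.019), all with another probe of the gene. In EG against ESC another probe reversed Psmd7 (-4.58), Psmd10 (-2.92 and -1.72) and Psmg2 (-2.04), the mean of the probes reversed them too (-2.13, -1.43 and -0.90), and median scaling reversed Psmd7 (-0.075).

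Replicate numbers are shared by the groups in the labels, but deviations from group means of arrays with the same number correlated between -0.027 and 0.031 over 15 pairs of groups, so the numbers were not taken to pair the arrays. With the replicate number as a block, 29 genes were called in hiEGL against EG, 16 in hiEGL2 against hiEGL1, 6 in ESCf against ESCm, 33 in PGC11.5 against ESC, 35 in EG against ESC and 33 in hiEGL against PGC11.5. The shares of all genes called were 61.6%, 28.9%, 17.8%, 68%, 72.5% and 77% in the same order. EpiT9 and EpiE3 have 1 array each, which left no such fit for EpiSC against ESC.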
